A study of Homo sapiens with 6 samples.

Results

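The 29 S phase and DNA replication genes described here are those that load, activate and drive the replication fork, supply its nucleotides and rebuild chromatin behind it. They were taken by gene symbol from a fixed list, and all 29 were present among the 17645 genes of each expression table. RNA was measured in cells labelled MDAMB231, an established line of triple negative breast cancer. One group was transfected with siRNF31, which targets the mRNA of the ubiquitin ligase RNF31, and the other with siControl. Each group had 3 libraries, harvested after 48 h, and all cells were grown in DMEM with fetal bovine serum and antibiotics. Whether siRNF31 was a single siRNA or a pool, and whether the replicates were separate cultures, is not stated in the labels, so the p-values cover the spread among these libraries alone, and that spread may be technical.

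A chromosome is copied once per cell cycle. In G1, the factors CDC6 and CDT1 load the ring of MCM2 to MCM7 onto origins. At the start of S phase, CDC45 and the GINS complex turn that ring into an active helicase, polymerases and the sliding clamp PCNA follow, and ribonucleotide reductase, thymidylate synthase and thymidine kinase supply deoxynucleotides. Many of these genes are transcribed around the G1/S transition by E2F factors, which makes their mRNAs common markers of proliferation in breast cancer cells.

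Levels are given in FPKM, which scales fragments to transcript length and to all mapped fragments. Log2 fold changes are siRNF31 over siControl on log2(FPKM + 1), and means stand with their SD over 3 libraries per group. RNF31 (Gene ID 55072) measured 1.92, 2.12 and 1.86 FPKM in the siRNF31 libraries, against 11.34, 10.7 and 10.57 FPKM in the siControl libraries, which left 18.1% of the siControl mean. VIM and AXL were abundant in all libraries (VIM at 3458 to 3771 FPKM in siRNF31 and 3027 to 3342 FPKM in siControl), PGR was at 0.01 FPKM or less and EPCAM at 0.03 FPKM or less. CD44 measured 251.03, 246.21 and 244.6 FPKM in siRNF31, against 530.99, 564.37 and 555.78 FPKM in siControl, and was called lower. ESR1 measured 0.81 to 1.33 FPKM in siRNF31 and 0.37 to 1.1 FPKM in siControl, and ERBB2 6.84 to 7.84 FPKM in siRNF31 and 7.71 to 8.47 FPKM in siControl. The 6 luminal epithelial markers summed to 1.91 to 2.59 FPKM in siRNF31 and 1.54 to 2.26 FPKM in siControl. The 4 endothelial markers summed to 0.79 to 0.93 FPKM in siRNF31 and 1.48 to 1.84 FPKM in siControl, with CDH5 at 0.01 FPKM or less throughout. Of the immune markers, PTPRC stayed at or below 0.51 FPKM, while CD68, which many tumour lines express, measured 33.18 to 38.47 FPKM in siRNF31 and 36.1 to 44.35 FPKM in siControl. Libraries correlated at 0.993 to 0.998 within groups and 0.941 to 0.948 between groups. On the second principal component (7.18% of variance), siControl replicate 1 and siRNF31 replicate 3 stood on one side, so results were also computed without both.

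The replication genes did not move as a block. With siRNF31, the 4 nucleotide supply members, the E2F1 transcription factor, the licensing factor CDC6 and the chromatin assembly subunits CHAF1A and CHAF1B rose. FEN1, POLA1, GINS1 and MCM2, MCM4, MCM5 and MCM7 fell. All 29 genes passed the filter on low values, and 12 were called higher and 9 lower by limma at an adjusted p below 0.05, that is 21 of 29 or 72.4%. Of all 11346 genes tested, 63.1% were called, 26.6% higher and 36.5% lower, so the share among the 29 stood near that background. The median log2 fold change was 0.08 for the members and -0.06 for all tested genes, and the median absolute change was 0.29 for the members and 0.30 for all tested genes. In bulk RNA, a change in the share of cells in S phase and a change in the mRNA per cell cannot be told apart.

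Few of the changes were large. At 1.5-fold or more, 3 members were called higher (E2F1, RRM2 and CDC6) and 2 lower (FEN1 and MCM7), which is 17.2% of the 29, against 23.0% of all tested genes (9.91% higher and 13.1% lower). Folds were counted on log2(FPKM + 1), which left out POLA1 (-0.58), although its siRNF31 mean was 59.3% of the siControl mean. E2F1 alone passed 2-fold, and no member fell by as much, where 7.84% of all tested genes were called at that size, 3.53% higher and 4.31% lower. The siRNF31 and siControl values did not overlap for 23 of 29 members (79.3%), where 67.2% of all tested genes showed no overlap. Of these 23, 13 lay above siControl and 10 below, against 28.4% and 38.8% of all tested genes. Levels ran from 2.73 FPKM for POLE2 to 239 FPKM for RRM2 as means over the 6 libraries, and 14.7% of tested genes lay below POLE2 and 97.7% below RRM2.

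**Figure D1:**
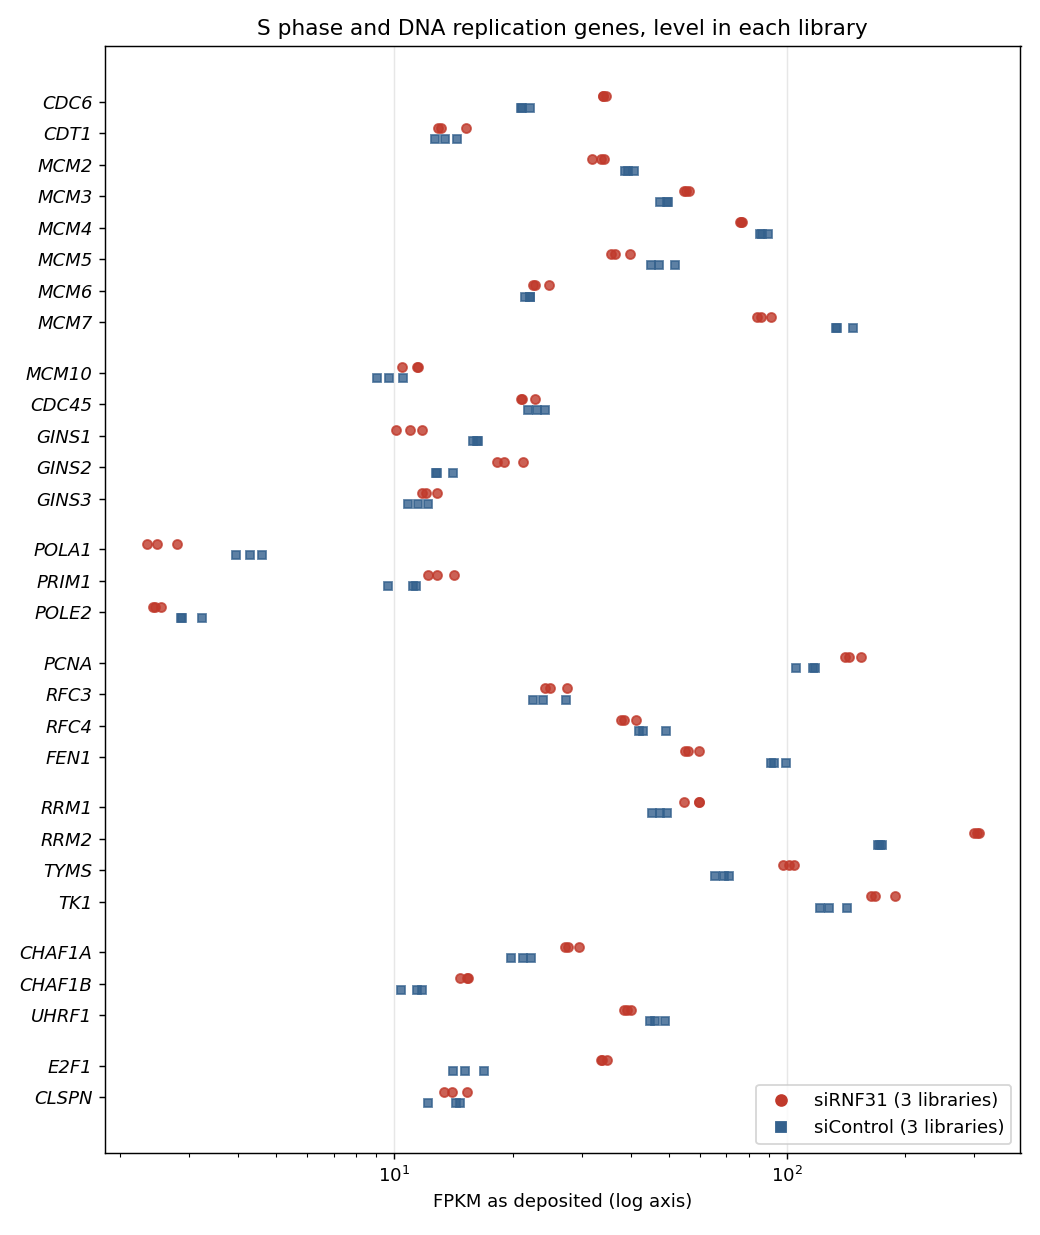
FPKM on a log axis of each of the 29 genes in each of the 3 siRNF31 libraries (circles) and 3 siControl libraries (squares), grouped by role from licensing at the top to control genes at the bottom. The symbols of the groups are apart for 23 genes, most widely for E2F1 at 33.66 to 34.88 FPKM in siRNF31 and 14.13 to 16.96 FPKM in siControl.

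E2F sites are the promoter feature most often tied to this gene class, so the windows that carry them are shown for genes that rose and for genes that fell. In RefSeq promoters of GRCh38.p14, reaching from 250 bases before to 50 after the annotated start, the letters TTTNNCGC were searched on both strands, where N is any base. The letters were present for 17 of 27 members with a promoter (63%), for 27 of 67 other replication genes (40.3%) and for 13.4% of all tested genes with one, and in 6.89% of all 35116 promoters of the table. Each window below holds the 100 bases before the start site, 5′ to 3′ on the strand of the gene, with the matches in capitals. Overlapping matches run together, as for E2F1, whose window holds 3 matches. The first 4 genes rose and the last 2 fell.
E2F1: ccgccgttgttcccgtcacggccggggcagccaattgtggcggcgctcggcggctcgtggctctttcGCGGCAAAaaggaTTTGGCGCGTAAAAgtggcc
PCNA: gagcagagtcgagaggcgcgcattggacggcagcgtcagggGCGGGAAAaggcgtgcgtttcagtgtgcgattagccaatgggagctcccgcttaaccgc
TYMS: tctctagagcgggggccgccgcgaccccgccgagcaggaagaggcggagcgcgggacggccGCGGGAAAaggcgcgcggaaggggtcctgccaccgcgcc
GINS2: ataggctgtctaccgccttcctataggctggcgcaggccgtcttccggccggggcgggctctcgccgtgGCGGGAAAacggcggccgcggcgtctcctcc
MCM7: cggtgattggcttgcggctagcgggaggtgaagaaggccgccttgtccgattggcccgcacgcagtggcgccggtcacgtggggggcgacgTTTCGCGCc
UHRF1: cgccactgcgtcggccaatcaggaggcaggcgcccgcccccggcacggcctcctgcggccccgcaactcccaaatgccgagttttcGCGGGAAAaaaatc

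The E2F1 window lies at chr20:33686386-33686485 on the minus strand. The PCNA window lies at chr20:5126623-5126722 on the minus strand. The TYMS window lies at chr18:657553-657652 on the plus strand. The GINS2 window lies at chr16:85688955-85689054 on the minus strand. The MCM7 window lies at chr7:100101398-100101497 on the minus strand. The UHRF1 window lies at chr19:4909401-4909500 on the plus strand. The matches in these windows begin within 59 bases of the start site. Of the 17 members with a match, 6 were called higher, 6 lower and 5 were not called. Of the 10 without one, 6 were higher, 1 lower and 3 not called. Of all tested genes, 63.1% were called, 26.6% higher and 36.5% lower. Tested genes that held the letters had a median log2 fold change of -0.06, and so did those that did not. RRM2 had none of them, and one of its promoters held the letters CCAAT, which bind NF-Y, beginning 123, 93 and 66 bases before the start site. Matches to the 2 words can overlap, as in MCM7, where they share 1 base. CCAAT, searched in the same way, was found for 18 of 27 members and for 43.9% of all tested genes with a promoter, and in 34.6% of the promoters in the table. A match is a run of letters and no evidence of binding.

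Among the licensing genes, CDC6 (Gene ID 990), the ATPase that recruits the helicase to origins, rose. It measured 34.62, 34.10 and 34.04 FPKM in siRNF31, against 21.02, 22.17 and 21.15 FPKM in siControl (log2 fold change 0.65, SE 0.05, limma adjusted p = 8.5e-06). The groups lay wide apart, and the siRNF31 libraries were within 1 FPKM of each other. CDT1, its partner in loading, measured 13.15, 12.9 and 15.2 FPKM in siRNF31, against 14.45, 13.49 and 12.71 FPKM in siControl. Its values overlapped, and the 95% interval of the log2 difference ran from -0.16 to 0.20. The sign of the CDT1 difference turned under common sum scaling and without either siControl replicate 3 or siRNF31 replicate 3.

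The 6 subunits of the helicase ring did not shift together. MCM7 (Gene ID 4176) fell furthest, at 84.13, 85.76 and 91.16 FPKM in siRNF31, against 147.06, 134.38 and 133.67 FPKM in siControl (log2 fold change -0.66, SE 0.061, limma adjusted p = 2.81e-05). MCM5 fell by 0.35 on the log2 scale to 37.4 ± 2.24 FPKM in siRNF31, against 48.1 ± 3.44 FPKM in siControl (SD, n = 3 each). MCM2 averaged 33.3 ± 1.15 FPKM in siRNF31 and 39.7 ± 1.06 FPKM in siControl, and MCM4 averaged 76.4 ± 0.372 FPKM in siRNF31 and 87.2 ± 2.21 FPKM in siControl. Both fell, and the call of MCM4 (adjusted p = 0.0096) was lost under median of ratios scaling (adjusted p = 0.068). MCM3 rose, with 55.30, 54.64 and 56.16 FPKM in siRNF31, against 49.74, 49.54 and 47.49 FPKM in siControl (limma adjusted p = 0.0137). MCM6 was 23.3 ± 1.20 FPKM in siRNF31 and 22.0 ± 0.398 FPKM in siControl and did not pass (adjusted p = 0.23), although it did under median of ratios (adjusted p = 0.042) and quantile scaling (adjusted p = 0.037).

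As FPKM is scaled to transcript length, levels of the ring subunits can be set side by side. MCM7 was the highest of the 6 in every library and MCM6 the lowest. The ratio of highest to lowest subunit, MCM7 over MCM6, was 3.40, 3.76 and 4.05 in siRNF31, against 6.84, 6.05 and 6.03 in siControl. This narrower range mostly restates the fall of MCM7, from a mean of 138 FPKM in siControl to 87.0 FPKM in siRNF31. MCM6 averaged 22.0 FPKM in siControl and 23.3 FPKM in siRNF31. The summed level of the 6 subunits, MCM7 included, was 309.6, 308 and 321 FPKM in siRNF31, against 396, 377 and 379 FPKM in siControl. MCM7 hosts microRNA genes and shares part of its locus with AP4M1 in the RefSeq annotation, and without strand information reads at such an overlap cannot be assigned. AP4M1 itself measured 6.37 ± 0.385 FPKM in siRNF31 and 5.98 ± 0.856 FPKM in siControl.

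Of the genes that activate the helicase, GINS1 and GINS2, which encode subunits of one complex, moved in opposite directions. GINS2 (Gene ID 51659) measured 19.00, 18.27 and 21.22 FPKM in siRNF31, against 14.08, 12.83 and 12.78 FPKM in siControl (log2 fold change 0.53, SE 0.072, limma adjusted p = 0.000272). GINS1 (Gene ID 9837) measured 10.09, 11.78 and 10.96 FPKM in siRNF31, against 16.28, 16.30 and 15.82 FPKM in siControl (log2 fold change -0.52, SE 0.066, limma adjusted p = 0.000175). GINS2 overlaps GSE1 in the annotation, and GSE1 measured 5.88 ± 0.304 FPKM in siRNF31 and 6.09 ± 0.554 FPKM in siControl. GINS1 was the more abundant of the pair in each siControl library and GINS2 in each siRNF31 library. GINS3 and CDC45 overlapped between groups, with 95% intervals of the log2 difference from -0.07 to 0.23 and from -0.23 to 0.05. MCM10, which helps to start unwinding, averaged 11.1 ± 0.574 FPKM in siRNF31 and 9.75 ± 0.762 FPKM in siControl. It missed the threshold (adjusted p = 0.065) but passed without siControl replicate 3 (adjusted p = 0.032), without siRNF31 replicate 3 (adjusted p = 0.040) and under median of ratios and quantile scaling (adjusted p = 0.021 and 0.012). MCM10 also passed without siControl replicate 1 and siRNF31 replicate 3 together (limma adjusted p = 0.043).

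The polymerase genes were the least abundant members. POLA1 (Gene ID 5422), the catalytic subunit of the polymerase that starts each new strand, fell to 2.80, 2.49 and 2.34 FPKM in siRNF31, against 3.95, 4.61 and 4.30 FPKM in siControl (log2 fold change -0.58, SE 0.08, limma adjusted p = 0.000288). The siRNF31 mean was 59.3% of the siControl mean, a larger fall than the log2 value shows because 1 was added to low FPKM. PRIM1, the primase that works in the same complex, measured 12.19, 12.84 and 14.16 FPKM in siRNF31, against 11.36, 11.16 and 9.63 FPKM in siControl (adjusted p = 0.0205). The PRIM1 result missed the threshold without siControl replicate 3 (adjusted p = 0.063) and without siRNF31 replicate 3 (adjusted p = 0.056). POLE2, a subunit of the leading strand polymerase, averaged 2.48 ± 0.0624 FPKM in siRNF31 and 2.99 ± 0.208 FPKM in siControl (adjusted p = 0.0335). That call depended on single libraries, since it was lost when siControl replicate 2 (adjusted p = 0.058), siControl replicate 3 (0.114), siRNF31 replicate 1 (0.095) or siRNF31 replicate 2 (0.093) was left out, and under median of ratios (0.103) and quantile scaling (0.064).

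At the clamp and the lagging strand, PCNA and FEN1, whose proteins bind each other at the fork, also went opposite ways. PCNA (Gene ID 5111), the sliding clamp, measured 144.04, 140.5 and 154.07 FPKM in siRNF31, against 117.98, 116.73 and 105.54 FPKM in siControl (log2 fold change 0.36, SE 0.065, limma adjusted p = 0.00131). FEN1 (Gene ID 2237), the nuclease that trims Okazaki fragment flaps, measured 55.89, 55.13 and 59.83 FPKM in siRNF31, against 99.70, 92.99 and 91.09 FPKM in siControl (log2 fold change -0.72, SE 0.06, limma adjusted p = 1.42e-05). On log2(FPKM + 1), FEN1 had the largest fall of the 29 genes, while with a pseudocount of 0.1 FEN1 and POLA1 both stood at -0.73. The clamp loader subunits RFC3 and RFC4 did not pass. RFC3 overlapped between groups, while RFC4 averaged 39.2 ± 1.88 FPKM in siRNF31 and 44.7 ± 3.88 FPKM in siControl at an adjusted p of 0.051. RFC4 passed without siControl replicate 3 or siRNF31 replicate 3 (adjusted p = 0.033 each) and under common sum scaling (adjusted p = 0.0053). It also passed without siControl replicate 1 and siRNF31 replicate 3 together (limma adjusted p = 0.011).

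All 4 nucleotide supply members rose, in each case with every siRNF31 library above every siControl library. Of all tested genes, 26.6% were called higher, and 28.4% had every siRNF31 library above every siControl library. RRM2 (Gene ID 6241), the small subunit of ribonucleotide reductase whose supply limits the enzyme in S phase, measured 308.39, 305.15 and 299.38 FPKM in siRNF31, against 170.86, 174.94 and 173.10 FPKM in siControl (log2 fold change 0.81, SE 0.052, limma adjusted p = 3.08e-06). The large subunit RRM1 averaged 58.1 ± 2.90 FPKM in siRNF31 and 47.4 ± 2.12 FPKM in siControl (log2 fold change 0.29, adjusted p = 0.00311). TYMS, which makes thymidylate, measured 97.48, 101.4 and 104.12 FPKM in siRNF31, against 69.20, 71.32 and 65.69 FPKM in siControl (log2 fold change 0.55, limma adjusted p = 4.96e-05). TYMS overlaps ENOSF1 on the opposite strand, and ENOSF1 was lower in siRNF31, at 2.38 ± 0.234 FPKM against 4.09 ± 0.153 FPKM in siControl. TK1, the salvage thymidine kinase, averaged 173 ± 13.6 FPKM in siRNF31 and 131 ± 10.9 FPKM in siControl (log2 fold change 0.40, adjusted p = 0.00235).

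Among genes of chromatin assembly, CHAF1A and CHAF1B, subunits of the factor that deposits histones on new DNA, rose by nearly the same amount. CHAF1A measured 27.67, 27.29 and 29.6 FPKM in siRNF31, against 22.27, 21.25 and 19.77 FPKM in siControl (log2 fold change 0.40, limma adjusted p = 0.000559). CHAF1B measured 14.68, 15.4 and 15.29 FPKM in siRNF31, against 11.75, 10.38 and 11.4 FPKM in siControl (log2 fold change 0.41, limma adjusted p = 0.000584). CHAF1A overlaps UBXN6, which was lower in siRNF31 at 38.7 ± 2.61 FPKM, against 47.7 ± 3.66 FPKM in siControl. UHRF1, which recruits the methyltransferase that copies DNA methylation, fell to 39.2 ± 0.901 FPKM in siRNF31, against 46.6 ± 2.14 FPKM in siControl (log2 fold change -0.24, adjusted p = 0.00475).

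E2F1 (Gene ID 1869), the transcription factor of the G1/S programme, had the largest rise of the 29 genes. It measured 33.83, 33.66 and 34.88 FPKM in siRNF31, against 16.96, 15.12 and 14.13 FPKM in siControl (log2 fold change 1.10, SE 0.07, limma adjusted p = 2.96e-06). The siRNF31 mean was 2.22 times the siControl mean. CLSPN, the adaptor claspin that links a stalled fork to the kinase CHEK1, overlapped between groups at 14.2 ± 0.976 FPKM in siRNF31 and 13.7 ± 1.38 FPKM in siControl, with a 95% interval of the log2 difference from -0.14 to 0.24.

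**Figure D2:**
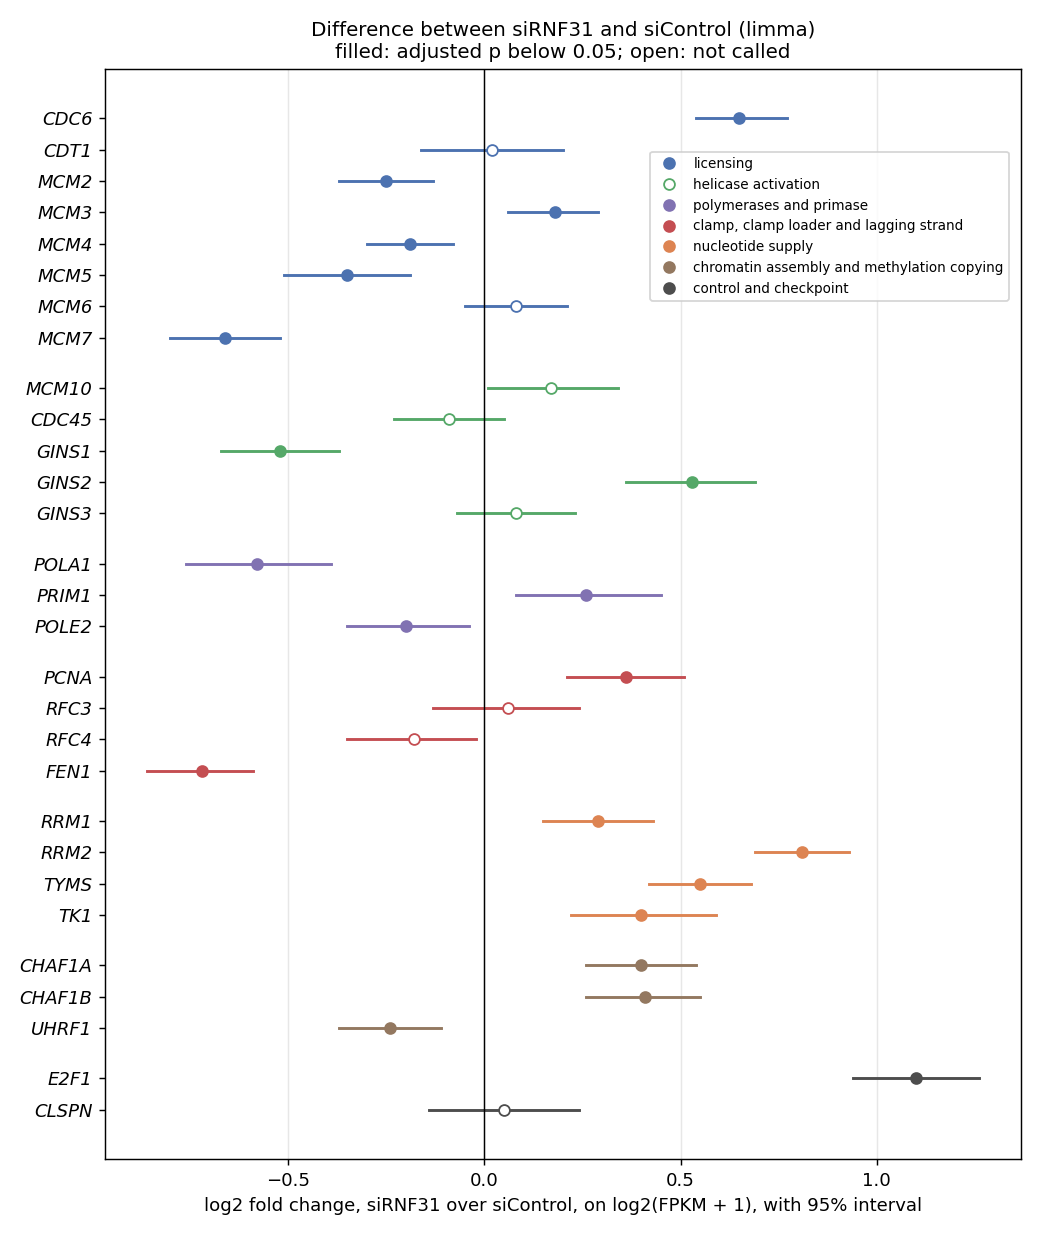
Log2 fold change of each of the 29 genes, siRNF31 over siControl on log2(FPKM + 1), with 95% intervals from limma; filled points were called at an adjusted p below 0.05. The 4 nucleotide supply genes lie to the right of 0 (0.29 to 0.81), while licensing genes lie on both sides (-0.66 to 0.65) and E2F1 stands farthest right at 1.10.

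Ratios between genes within a library do not change when a whole library is multiplied by a single factor, though quantile scaling can change them. The pairs below were picked after their values were seen and are given without a test. RRM2 over RRM1 was 5.15, 5.11 and 5.46 in siRNF31, against 3.78, 3.67 and 3.50 in siControl. GINS2 over GINS1 was 1.88, 1.55 and 1.94 in siRNF31, against 0.865, 0.787 and 0.808 in siControl. For these pairs and the others plotted, the groups did not overlap.

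PCNA over FEN1 was 2.58, 2.55 and 2.58 in siRNF31, against 1.18, 1.26 and 1.16 in siControl. PRIM1 over POLA1 averaged 5.19 ± 0.849 in siRNF31 and 2.51 ± 0.328 in siControl. MCM7 over MCM3 averaged 1.57 ± 0.051 in siRNF31 and 2.83 ± 0.123 in siControl.

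**Figure D3:**
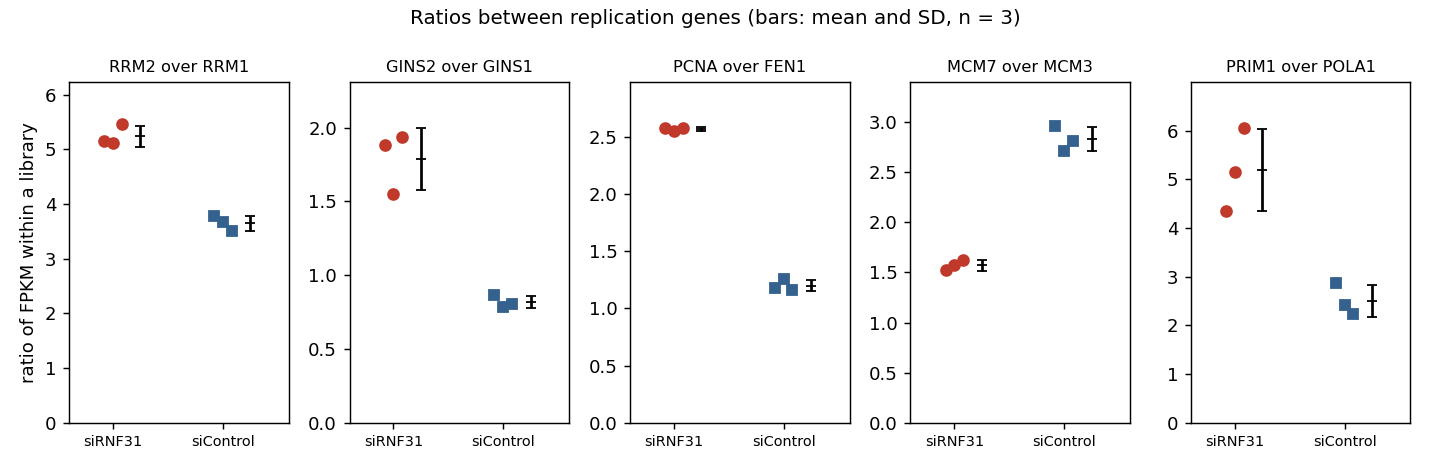
Ratios of FPKM between 5 pairs of replication genes within each library, for 3 siRNF31 libraries (left in each panel) and 3 siControl libraries, with mean and SD; axes start at 0. The siRNF31 ratios are higher in 4 panels and lower for MCM7 over MCM3 (1.57 against 2.83).

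The other 84 genes of the replication machinery, all of which passed the filter, were called in 63.1% of cases, the same share as all tested genes. Of these, 19 were higher and 34 lower, and the split moved to 28 and 29 under median of ratios and to 30 and 29 under quantile scaling. At 1.5-fold or more, 4 were higher and 12 lower, together 19.0% against the 23.0% of all tested genes. The median log2 fold change was -0.02. The calls of all tested genes shifted in the same direction, from 3022 higher and 4141 lower to 3567 and 3575 under median of ratios. Under quantile scaling they were 3529 and 3740, so the shift was not particular to the 84 genes.

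On log2(FPKM + 1), the largest change downward was at the single-strand binding protein. With a pseudocount of 0.1 E2F5 fell further (-1.91, against -1.59 for RPA1), but it passed the filter through its siControl libraries alone. RPA1 (Gene ID 6117), the large subunit of the single-strand binding protein, measured 14.43, 14.15 and 13.85 FPKM in siRNF31, against 41.44, 43.31 and 44 FPKM in siControl (log2 fold change -1.54, SE 0.051, limma adjusted p = 1.30e-07). RPA1 over RPA2 was 0.372, 0.372 and 0.370 in siRNF31, against 0.862, 0.966 and 1.02 in siControl. A 7-base word of the RNF31 mRNA, GCTACAC, which an earlier search of these same data had tied to lower values, occurs in the annotated 3′ UTR of RPA1, at chr17:1897251-1897280 on the plus strand of GRCh38, shown here in capitals within 30 bases.
RPA1: atcccatgttaGCTACACagtgcagaggct

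None of the 29 members carried GCTACAC in a 3′ UTR. Of the 84 other genes, 6 did (POLE, RPA1, DCK, E2F6, TFDP2 and RBL1), against 5.27% of 11042 tested genes with a 3′ UTR. POLE, RPA1, DCK and E2F6 were called lower, and TFDP2 and RBL1 higher. Of all tested genes, 36.5% were called lower and 26.6% higher, so calls among 6 genes say little about the word. The word's part in those values was not tested. The median log2 fold change was -0.21 for all tested genes with the word and -0.06 for those without, on data that had served to pick it.

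Around licensing and origin firing, DBF4, the activating subunit of the kinase that fires origins, fell to 9.49, 9.81 and 9.17 FPKM in siRNF31, against 22.18, 23.92 and 22.07 FPKM in siControl (log2 fold change -1.18, limma adjusted p = 8.32e-07). Its relative DBF4B fell by 0.34 on the log2 scale. CDC7, the kinase itself and outside the naming rule, was called higher (log2 fold change 0.21, limma adjusted p = 0.0393). MCMBP, which binds MCM subunits outside chromatin, averaged 16.4 ± 0.978 FPKM in siRNF31 and 29.2 ± 0.114 FPKM in siControl, and the origin recognition subunit ORC2 averaged 8.18 ± 0.607 FPKM in siRNF31 and 11.2 ± 0.636 FPKM in siControl. DBF4, DBF4B, MCMBP and ORC2 were called lower, and the naming rule took called genes only. Of the 8 licensing genes outside the 29, 3 were lower and 5 not called, so that 37.5% were called. Of the 12 helicase activation genes outside the 29, 3 were higher, 3 lower and 6 not called. Among all tested genes, 63.1% were called, 26.6% higher and 36.5% lower. GINS4 and DONSON rose by log2 fold changes of 0.37 and 0.33. Of the 4 GINS genes, GINS2 and GINS4 thus rose, GINS1 fell and GINS3 did not pass.

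Of the 9 polymerase genes outside the 29, 1 was higher and 5 lower, or 66.7% called, where all tested genes gave 63.1% (26.6% higher and 36.5% lower). POLA2 and POLE3 fell by 0.31 and 0.39 on the log2 scale, and POLD4 rose by 0.27, though leaving out siControl replicate 2 took its adjusted p to 0.051. Of 16 clamp, loader and lagging strand genes, 2 were higher and 10 lower, so that 75.0% were called. PCLAF, a PCNA partner, measured 57.76, 55.56 and 59.37 FPKM in siRNF31, against 37.47, 36.03 and 31.84 FPKM in siControl, and the loader subunit RFC1 averaged 27.5 ± 2.26 FPKM in siRNF31 and 19.9 ± 1.57 FPKM in siControl. CHTF8, of an alternative clamp loader, measured 5.36, 10.19 and 12.87 FPKM in siRNF31, against 19.56, 17.66 and 18.87 FPKM in siControl (log2 fold change -0.98, SE 0.24). Its partner DSCC1, outside the naming rule and added after its values were seen, measured 15.39, 15.6 and 14.57 FPKM in siRNF31, against 29.77, 32.63 and 30.28 FPKM in siControl. The siRNF31 libraries lay close together for DSCC1 but far apart for CHTF8, whose call was lost without siControl replicate 1 and siRNF31 replicate 3 together (adjusted p = 0.075).

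Nucleotide genes outside the 29 did not all follow the rise of RRM2 and TYMS. Of these 8 genes, 2 were higher, 3 lower and 3 not called, so that 62.5% were called, against 63.1% of all tested genes. CTPS1, which makes CTP, averaged 81.2 ± 2.16 FPKM in siRNF31 and 65.4 ± 0.895 FPKM in siControl. The salvage kinase DCK fell to 8.57 ± 1.17 FPKM in siRNF31, against 17.1 ± 1.15 FPKM in siControl. SAMHD1, which degrades deoxynucleotides, measured 6.82, 7.08 and 7.17 FPKM in siRNF31, against 14.01, 15.21 and 15.36 FPKM in siControl (log2 fold change -0.98, limma adjusted p = 2.78e-06). Of the chromatin genes, HELLS rose by a log2 fold change of 0.31, while the histone chaperone ASF1A fell by 0.68 and TONSL by 0.45.

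Among 21 control genes, 10 were higher and 6 lower, or 76.2% called, against 63.1% of all tested genes (26.6% higher and 36.5% lower). CCNE1, the cyclin that drives entry into S phase, measured 27.38, 27.96 and 29.62 FPKM in siRNF31, against 7.08, 6.62 and 7.22 FPKM in siControl, and its log2 fold change of 1.88 was the largest rise of all replication genes listed here. The activator E2F2 rose with E2F1, at 9.23, 9.59 and 9.09 FPKM in siRNF31, against 6.02, 5.48 and 5.35 FPKM in siControl (log2 fold change 0.64). E2F5, which acts mostly as a repressor, fell to 0.95, 0.55 and 0.96 FPKM in siRNF31, against 3.72, 3.01 and 3.10 FPKM in siControl (log2 fold change -1.24). Every siRNF31 value of E2F5 was below the filter's 1 FPKM. It was tested only because its siControl libraries passed, so its fall partly follows from the filter. Activators and repressors of the family did not split by direction. Of the other E2F genes listed, outside the naming rule, E2F8 was called higher (log2 fold change 0.52). E2F3 (-0.3), E2F4 (-0.64) and E2F6 (-0.53) were called lower, and E2F7 was not called. The checkpoint kinase ATR averaged 5.08 ± 0.684 FPKM in siRNF31 and 8.98 ± 1.6 FPKM in siControl (log2 fold change -0.71, limma adjusted p = 0.00139).

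**Figure D4:**
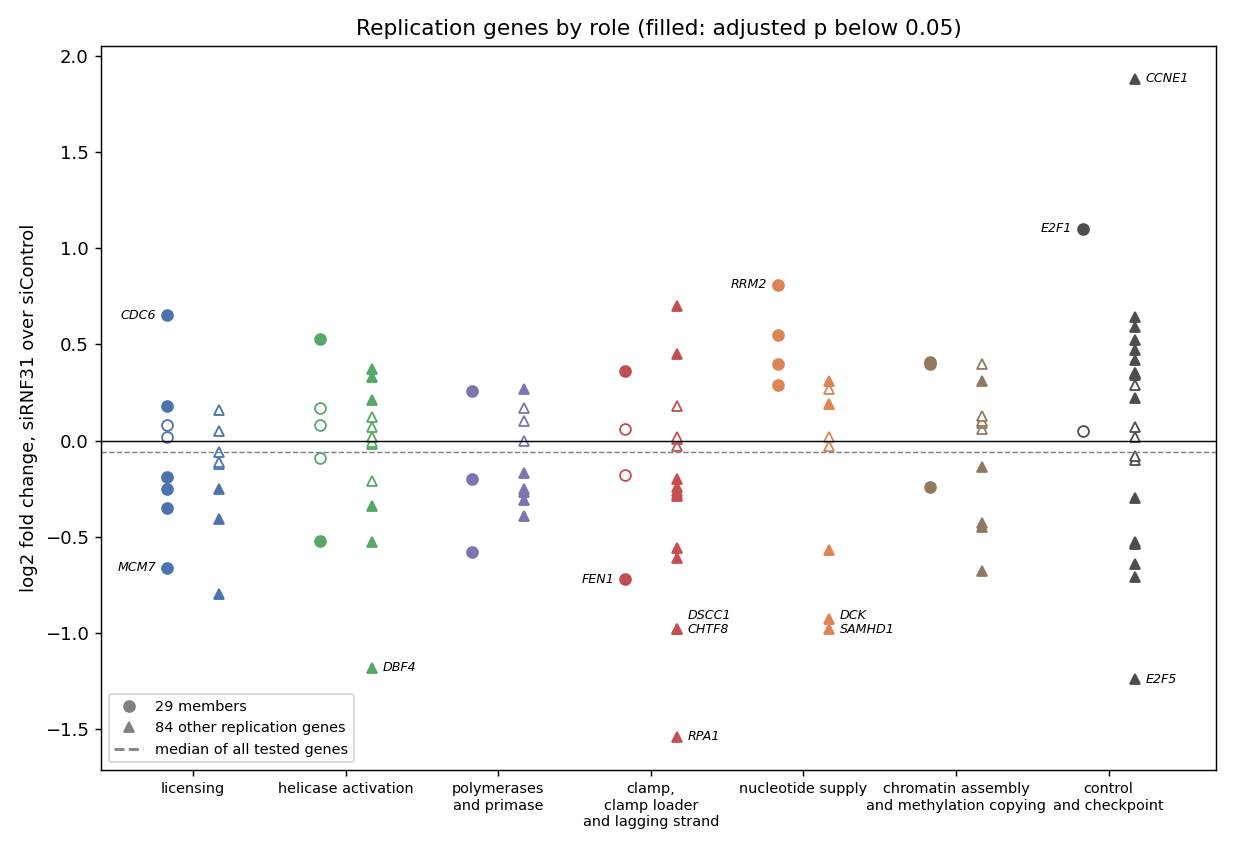
Log2 fold change, siRNF31 over siControl, of the 29 members (circles) and 84 other replication genes (triangles) in each role; filled symbols were called at an adjusted p below 0.05 and the dashed line is the median of all tested genes (-0.06). Members lie above 0 alone in nucleotide supply and in control, and on both sides of 0 in the other roles; the extremes are CCNE1 at 1.88 and RPA1 at -1.54.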

How the data were processed

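RNA was measured in 6 libraries, 3 per group. The deposited values are FPKM, scaled by the authors to transcript length and mapped fragments, per the file headers, and printed to 2 decimals for 17645 genes. Libraries came from Trizol lysates by BGISEQ-500 protocols, per the labels' protocols. Aligner, counting program, genome build and gene models were not given in the sources used here. Low values did not fall into whole-read steps, so counts could not be recovered. Depth is therefore unknown, without counting intervals. FPKM totals ran from 421755 to 463457 and are not depths.

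The filter kept 11346 genes that reached an FPKM of 1 in 3 or more libraries, and log2(FPKM + 1) was fitted by group with limma 3.58.1 in R 4.3.3 (intensity trend, robust empirical Bayes). Two-sided p-values were adjusted by the Benjamini-Hochberg method over these 11346 genes, and genes below 0.05 were called. Folds of at least 1.5 were counted on the fitted log2 scale, which understates low genes. Ratios and percentages are of mean FPKM. All 29 members are named. Of the 84 other replication genes, up to 2 called genes per direction and role with the largest change and mean FPKM of at least 2 were named by rule, and 1 of them is not reported here. Members, lists and rules were chosen with earlier results of these data known.

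The alternatives tried were omitting the filter on low values, a pseudocount of 0.1, 3 rescalings (median of ratios, common sum, quantile), limma without the trend, the replicate block and each library left out. Quantile scaling and leaving out 2 libraries together were added after the data were seen. The fit was tested on simulated data. Promoters came from RefSeq (GRCh38.p14), matched by Gene ID for 27 of 29 members, and 3′ UTRs from GENCODE 29 (GRCh38). Other software was matplotlib 3.10.9, pandas 2.3.3, numpy 2.4.6 and scipy 1.17.1 under Python 3.11.15.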

Additional observations from a re-analysis of the deposited data

How the results depend on the processing

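Of the 29 members, 19 kept their direction and their side of the threshold in all 14 alternatives, and so did 22 of the 25 other genes compared in this way (RNF31 among them). Besides the exceptions given beside their values above, the sign turned for 3 members. CDT1 turned to -0.0036 under common sum scaling, -0.02 without siControl replicate 3, -0.05 without siRNF31 replicate 3 and -0.01 without siControl replicate 1 and siRNF31 replicate 3 together. Without siControl replicate 1, RFC3 turned to -0.0021 and CLSPN to -0.03. Over the single libraries left out, the ranges were -0.05 to 0.06 for CDT1, -0.0021 to 0.13 for RFC3 and -0.03 to 0.10 for CLSPN. None of these was called in any setting, and the cause was not tested. Members called higher ranged from 10 to 14 and members called lower from 7 to 10 over all alternatives. Without siControl replicate 1 and siRNF31 replicate 3 together the counts were 13 and 10. The other replication genes called higher numbered 30 under quantile scaling, against 19 as deposited. All tested genes called higher numbered 3529 and 3022 in the same settings, and their median was 0.00 under median of ratios. Same-numbered libraries did not deviate together (correlations of -0.568, 0.124 and -0.629), so the numbers do not pair them. With the replicate block, 10 members were higher and 7 lower, 16 and 30 of the other replication genes, and 2480 and 3497 of all tested genes, and the calls of the members MCM3, MCM4, PRIM1 and POLE2 were lost. No counts were available, so what depth limits could not be assessed.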
